A study of Mus musculus with 4 samples.

Results

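Exportin-5, encoded by Xpo5, and 8 further genes were followed through cultures of mouse osteoclast precursors with and without Piezo1. The 9 genes are Xpo5, Drosha, Dgcr8, Dicer1, Tarbp2, Ago1, Ago2 and Ago3 of the microRNA pathway, and Xpo1, the gene of exportin-1, taken for comparison. They were found by symbol, and all 9 are among the 12799 genes with values in the 4 libraries. Xpo5 was picked because its level in the knockout libraries was already known to be higher, so its own values are a description and support nothing. The other 8 were picked by function, and the question was whether the difference in Xpo5 is shared along the pathway.

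Control cells were of the genotype Piezo1f/f, in which both Piezo1 alleles carry loxP sites and no recombinase is named (n = 2 libraries). Knockout cells were Csf1r-iCre;Piezo1fl/fl, in which a recombinase under the Csf1r promoter, active in monocytes and macrophages, acts on the same alleles (n = 2 libraries). Since the control genotype names no Cre, an effect of the transgene and an effect of Piezo1 loss cannot be told apart. All mice were female and 12 weeks of age. Marrow from femur and tibia was kept for 2 days, and the cells that had not attached were grown with M-CSF (30 ng/mL), the growth factor of macrophages. RANKL (50 ng/mL), the signal that turns precursors into osteoclasts, was then added to it for 3 days. The libraries of a genotype are called biological replicates in the design text, which does not say how many animals each came from, so p-values measure the spread between these libraries.

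MicroRNAs are short RNAs that guide Argonaute proteins to messenger RNAs and lower their translation and stability. In the nucleus the microprocessor, made of the nuclease DROSHA and its partner DGCR8, cuts a hairpin out of a long primary transcript. Exportin-5 carries that hairpin to the cytoplasm together with the GTPase RAN, DICER1 and its partner TARBP2 cut it to a duplex, and one strand is kept by an Argonaute. In the osteoclast lineage the pathway is best known from mice without Dicer1 or Dgcr8 in these cells, in which osteoclast formation is impaired.

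The libraries held 14122118 to 18897927 reads in genes, and levels are given in CPM, the reads of a gene relative to a scaled library size. Piezo1 was at 430 and 384 CPM in the controls and at 61.0 and 56.2 CPM in the knockouts, and the difference passed the limma test (Benjamini-Hochberg adjusted p = 8.23e-05). Of the osteoclast markers the most abundant was Ctsk, the cathepsin of bone resorption, at 23060 to 26656 CPM. Of the monocyte and macrophage markers Cd68, a lysosomal membrane protein gene, was at 1279 to 1607 CPM and the M-CSF receptor gene Csf1r at 1201 to 1570 CPM, while Mertk, Cx3cr1, Ccr2 and Fcgr1 were each under 8 CPM in all 4 libraries. Of 10 T, NK and B cell markers 1 had values, the T cell receptor gene Trac, at 1.32 to 3.21 CPM. The most abundant neutrophil or mast cell marker was S100a9, at 13.3 to 28.2 CPM, and the most abundant erythroid or endothelial marker was Kdr, at 3.35 ± 0.61 CPM in the controls and 2.77 ± 0.38 CPM in the knockouts. The transcript of the red fluorescent protein listed as Tdtomato, which the labels do not mention, had 8 reads in control 1 and 86 in control 2, against 4098 and 16011 for the knockouts. Mitochondrial transcripts took 1.38% to 3.13% of the signal, least in knockout 1.

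Xpo5 had a higher level in both knockout libraries than in both controls. Xpo5 (ENSMUSG00000067150.6; chromosome 17, 46202782 to 46243598, plus strand, GRCm38) was at 59.6 CPM in control 1 and 56.9 CPM in control 2, against 89.6 CPM in knockout 1 and 98.2 CPM in knockout 2. The gap between the groups, from 59.6 to 89.6 CPM, was wider than the gap between the libraries of either genotype. These levels rest on 917, 813, 1358 and 1807 reads. Their exact 95% Poisson intervals, which cover counting error only, ended at 63.5 CPM for control 1 and began at 84.9 CPM for knockout 1. The group means were 58.2 ± 1.87 and 93.9 ± 6.09 CPM (SD, n = 2 each), a 1.61-fold level in the knockouts. On the log2(CPM + 0.5) scale the difference was 0.68 (SE 0.10, 95% confidence interval 0.46 to 0.91).

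In the fit over all 11781 genes tested, Xpo5 had rank 25 by p and rank 6 among the genes with a higher level in the knockouts. It did not pass the threshold of 0.05 with limma (adjusted p = 0.0698) or edgeR's quasi-likelihood test (adjusted p = 0.0686), and it passed with DESeq2 (adjusted p = 0.000528). Over all 15 alternatives its adjusted p ran from 0.000528 to 0.493 and its log2 difference from 0.62 to 0.75. Without knockout 1 it passed (adjusted p = 0.0172), and without control 2 it had the adjusted p of 0.493. In the same libraries, markers of stromal, fibroblast and osteoblast cells had lower levels in the knockouts, with a summed level of 2640 and 3236 CPM in the controls and 1991 and 1732 CPM in the knockouts. Of the 19 of 21 such markers with values, 12 were lower in both knockouts than in both controls and 0 were higher, against 15.4% and 16.5% of all genes. Of the 19, 11 had an unadjusted p under 0.05, all with lower levels, against 3.55% of all genes, and 1, Fbn1, passed the limma test with a lower level, against 0.119%. Their most abundant members, Col1a2 and Col1a1, were at 742 ± 88.8 and 660 ± 139 CPM in the controls against 479 ± 38.9 and 375 ± 15.1 CPM. For the markers outside the 12 the groups overlapped, and 2, Alpl and Cxcl12, had log2 differences above 0. Col6a1 was at 145 and 148 CPM in the controls, 173 CPM in knockout 1 and 90.7 CPM in knockout 2. Cxcl12 was at 34.6 and 33.0 CPM in the controls, 43.9 CPM in knockout 1 and 27.4 CPM in knockout 2. Bglap and Thy1 were not analysed here. Of 12 osteoclast and 11 monocyte and macrophage markers tested, 10 and 9 had log2 differences above 0, with medians of 0.13. In either list 1 had an unadjusted p under 0.05, with a higher level, against 1.35% of all genes. These were Dcstamp, at 658 ± 11.8 against 857 ± 27.5 CPM, and Apoe, at 930 ± 101 against 1346 ± 251 CPM. Neither passed with limma, and Apoe passed with DESeq2 (adjusted p = 0.0434). The part of any of these cell types in the Xpo5 difference was not tested. In bulk RNA a change in cell number and a change in RNA per cell cannot be told apart.

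**Figure D1:**
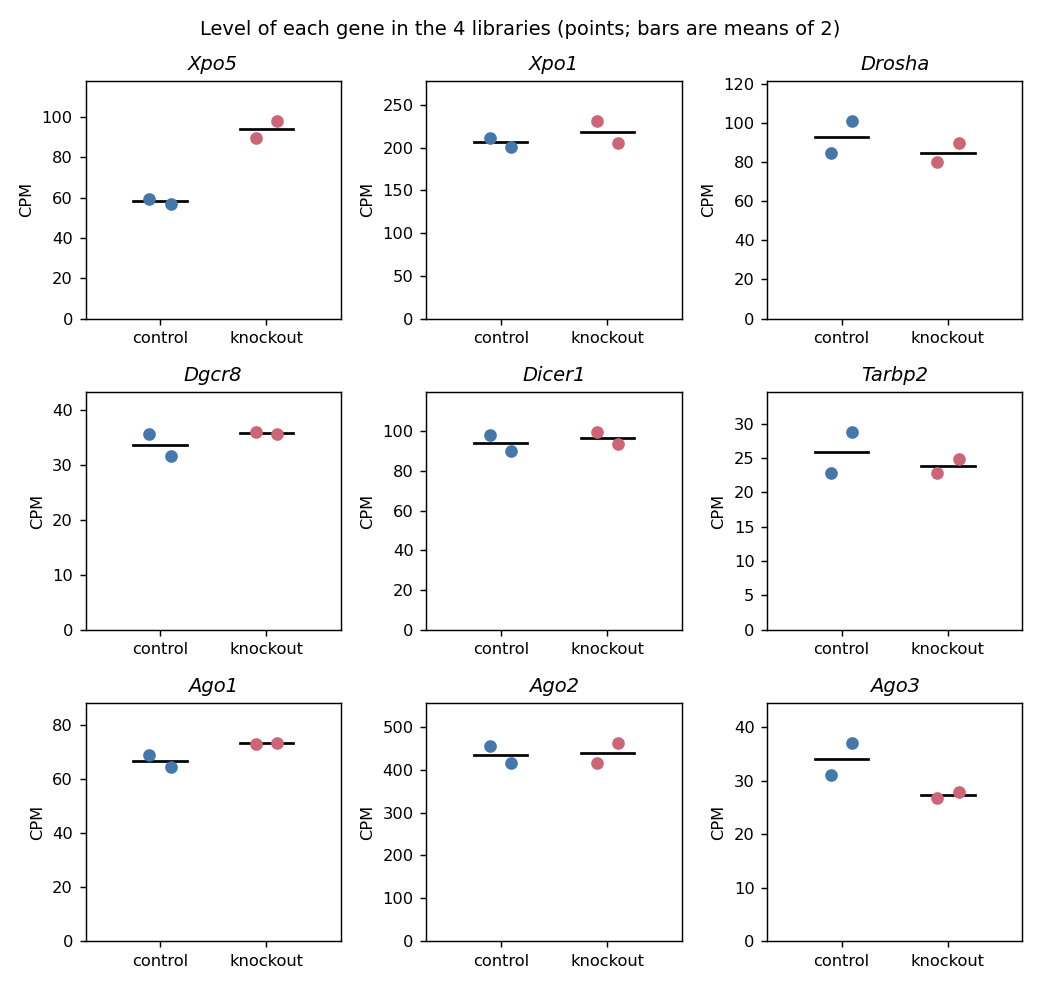
Level of each of the 9 genes in CPM (vertical axes, each from 0) in the 2 control and 2 knockout libraries, with points for libraries and bars for means. The Xpo5 points lie at 56.9 and 59.6 CPM in the controls and at 89.6 and 98.2 CPM in the knockouts, while the points of Xpo1, Drosha, Dicer1, Tarbp2 and Ago2 overlap between genotypes.

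Neither gene of the microprocessor passed the test. Drosha (chromosome 15, 12824815 to 12935291), the nuclease that makes the first cut, was at 84.6 and 101 CPM in the controls and 79.9 and 89.5 CPM in the knockouts. The groups overlapped, and the log2 difference was −0.13 (95% confidence interval −0.40 to 0.15). Dgcr8 (chromosome 16, 18253948 to 18289246), which binds the primary transcript and positions DROSHA, was at 35.5 and 31.5 CPM in the controls and 35.97 and 35.6 CPM in the knockouts. Both knockout libraries lay above both controls, but control 1 lay within 0.1 CPM of knockout 2, and the log2 difference was 0.10 (−0.17 to 0.36). Reads of Dgcr8 can be shared with Trmt2a, whose annotated span overlaps it, and the sources used here do not name the strand setting of the counting. Annotated genes also overlap Drosha (Gm47288), Ago2 (Chrac1) and Xpo5 (Gm22474 and Mir693), so the same limit holds for these.

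Exportin-1 is the receptor that carries proteins with leucine-rich export signals and some RNAs out of the nucleus. Its gene, Xpo1 (chromosome 11, 23256041 to 23298249) was at 211 and 201 CPM in the controls and 232 and 205 CPM in the knockouts, with control 1 above knockout 2. The log2 difference was 0.08 (−0.15 to 0.31). Of the 6 exportin genes other than Xpo5, 0 passed with limma, edgeR or DESeq2 (0.161%, 0.161% and 0.562% of all genes) and 0 had an unadjusted p under 0.05 (4.9% of all genes). Those shares are so low that a count of 0 among 6 genes does not set the exportins apart from other genes. Xpot, the exportin of transfer RNA, was at 203 ± 17.3 CPM in the controls and 221 ± 19.7 CPM in the knockouts, the highest log2 difference of the 6 at 0.12 (−0.13 to 0.37). Cse1l, which returns importin alpha to the cytoplasm, was at 63.3 ± 0.27 and 62.5 ± 0.15 CPM, so that its groups did not overlap although their means differed by less than 1 CPM. Xpo4, Xpo6 and Xpo7 had log2 differences of −0.05, −0.13 and 0.05. Per kilobase of merged exon length, Xpo5 made up 9.44% and 8.93% of the summed exportin level of the controls, against 13.0% and 13.9% for the knockouts. This share holds the Xpo5 level that led to the choice of the gene, so it is a description.

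Genes of the dicing step differed by less than the spread of the libraries. Dicer1 (chromosome 12, 104687742 to 104751952), the nuclease that turns the hairpin into a duplex, was at 97.9 and 90.0 CPM in the controls and 99.8 and 93.8 CPM in the knockouts. The groups overlapped, with a log2 difference of 0.04 (−0.18 to 0.27). Tarbp2 (chromosome 15, 102518192 to 102523676), its double-stranded RNA-binding partner, was at 22.9 and 28.8 CPM in the controls and 22.9 and 24.9 CPM in the knockouts. It was the lowest of the 9 in CPM and its interval was the widest of the set, with a log2 difference of −0.10 (−0.44 to 0.23). Prkra, which encodes the related DICER1 partner PACT, was at 20.0 ± 0.61 and 21.6 ± 3.42 CPM.

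The Argonaute genes showed no common direction. Ago2 (chromosome 15, 73095844 to 73184935), the Argonaute that can cut its target, was at 456 and 416 CPM in the controls and 417 and 463 CPM in the knockouts. Its groups overlapped throughout, and the log2 difference was 0.01 (−0.23 to 0.25). Ago1 (chromosome 4, 126435012 to 126468583), which represses targets without cutting them, was at 68.6 and 64.2 CPM in the controls and 72.9 and 73.3 CPM in the knockouts, with both knockouts above both controls and a log2 difference of 0.14 (−0.08 to 0.36). Ago3 (chromosome 4, 126331704 to 126429556) was at 31.1 and 37.1 CPM in the controls and 26.7 and 27.9 CPM in the knockouts. Both knockouts lay below both controls, the log2 difference was −0.31 (−0.60 to −0.02), and the limma adjusted p was 0.987. The Poisson intervals of control 1 (28.4 to 34.0 CPM) and knockout 2 (25.5 to 30.4 CPM) overlapped. Ago4, whose gene lies beside Ago1 and Ago3 on chromosome 4 (126489541 to 126533472), was at 30.2 and 39.4 CPM in the controls and 32.6 and 35.2 CPM in the knockouts. Neighbouring Argonaute genes thus had values on either side of 0, and none of the 3 on chromosome 4 passed the test.

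Across the set, the other 8 genes had smaller log2 differences than Xpo5, from −0.31 for Ago3 to 0.14 for Ago1. Of the other 8, 0 passed with limma, edgeR or DESeq2 at an adjusted p under 0.05, against 0.161% of all tested genes with limma (0.0424% higher and 0.119% lower in the knockouts), 0.161% with edgeR and 0.562% with DESeq2. Those shares are so low that a count of 0 among 8 genes does not set them apart from other genes. At an unadjusted p under 0.05 there was 1 of the 8, Ago3, against 4.9% of all genes (1.35% higher and 3.55% lower). Groups did not overlap for 3 of the 8, namely Dgcr8 and Ago1 with higher and Ago3 with lower levels in the knockouts, against 31.9% of all genes (16.5% higher and 15.4% lower). The median log2 difference of the 8 was 0.03, against 0.0016 over all genes tested. The highest upper confidence limit among the 8 was 0.36, that of Dgcr8 (a 1.28-fold level), and the lower limit for Xpo5 was 0.46. An increase of the size seen for Xpo5 lay outside the interval of each of the 8. Xpo5 was picked for its higher level, so this comparison with its values is a description. For 7 of the 8, all but Ago3, the interval held 0.

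**Figure D2:**
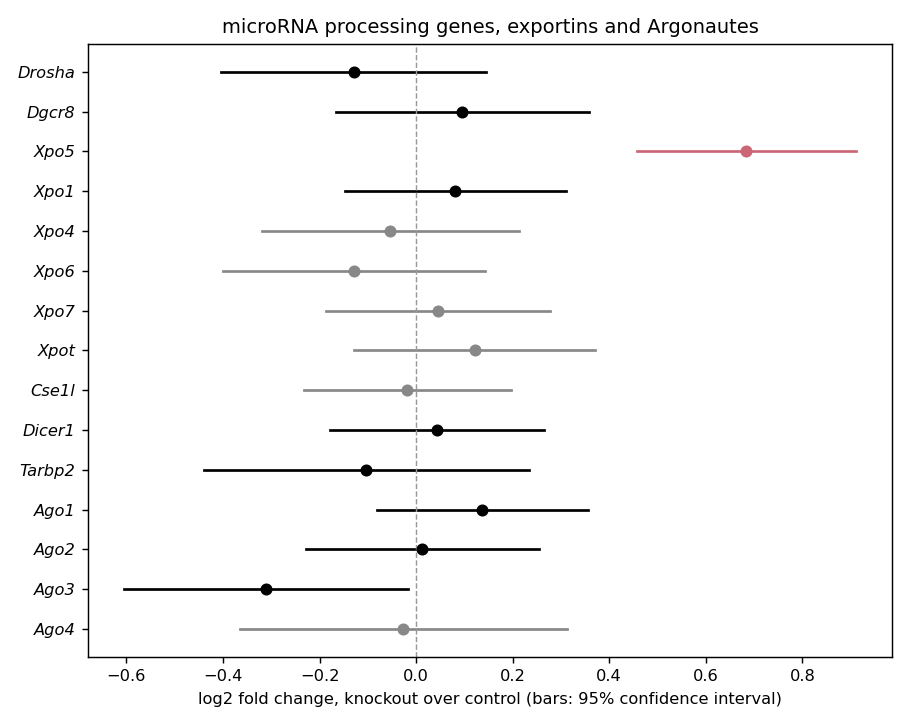
Log2 difference between knockout and control (horizontal axis, on the log2(CPM + 0.5) scale) with its 95% confidence interval from limma for 15 genes, with Xpo5 in red, the other 8 in black, and the remaining exportins and Ago4 in grey. The interval for Xpo5, 0.46 to 0.91, lies to the right of the others, and that of Ago3, −0.60 to −0.02, is the one that lies below 0.

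Ratios within a library do not depend on how libraries are scaled. Per kilobase of merged exon length, the ratio of Xpo5 to Xpo1 was 0.30 in either control, 0.41 in knockout 1 and 0.50 in knockout 2. The ratio of Xpo5 to Drosha, the step before export, was 0.61 in control 1 and 0.49 in control 2, against 0.97 and 0.95. The ratio to Dicer1, the step after export, was 1.49 in control 1 and 1.54 in control 2, against 2.19 and 2.56. Over all 8 genes the ratio was higher in both knockouts than in both controls in 8 of 8, by 1.47-fold for Ago1 to 1.99-fold for Ago3. Because each ratio holds the Xpo5 level that led to the choice of the gene, these are descriptions.

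Levels between genes were compared per kilobase. Ago2, at a mean of 31.2 CPM per kb over the 4 libraries, and Xpo1, at 29.5, were the highest and their ranges overlapped. Drosha followed at 15.0, Xpo5 at 11.1 and Ago1 at 8.59 CPM per kb, with the range of each overlapping that of the next. In the controls Xpo5 was at 8.49 CPM per kb, close to Ago1 at 8.18. In the knockouts it was at 13.7 CPM per kb, close to Drosha at 14.3. Dicer1 (5.69), Tarbp2 (5.47), Ago4 (4.94) and Dgcr8 (4.50) lay in a group in which each overlapped its neighbour, and Ago3 was lowest at 1.85 CPM per kb. Among the Argonautes, Ago2 made up 65.2% to 68.9% of the summed level per kilobase, Ago1 17.4% to 19.9%, Ago4 9.21% to 12.5% and Ago3 3.45% to 4.93%. Merged exon length takes in every annotated isoform, expressed or not.

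The wider pathway was read from lists of genes grouped by function. Of 135 genes in 9 lists, from primary transcripts to the decay of targets, 127 had values. With limma or edgeR 0 passed, against 0.161% of all genes with either. With DESeq2, 1 passed, Xpo5, against 0.562% of all genes. Those shares are so low that a count of 0 or 1 among 127 genes does not set the pathway apart from other genes. At an unadjusted p under 0.05 there were 4 of 127, against 4.9% of all genes: Xpo5 with a higher level, and Ago3, Zc3h12a and Mir100hg with lower ones (1.35% and 3.55% of all genes). The groups did not overlap for 27 of the 127, against 31.9% of all genes. Without Xpo5 the values ran from −0.59 for Mir100hg to 0.41 for Mir142hg, whose interval reached 1.15, so an increase of the size seen for Xpo5 lay inside the interval of at least 1 of these genes. The median log2 difference was −0.0023 over the 127 and 0.0016 over all genes.

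By step, the 20 microprocessor genes and cofactors had 8 values above and 12 below 0, with a median of −0.05 and a range from −0.15 for Erh to 0.10 for Dgcr8. Their most abundant members were Hnrnpa2b1, a reader of primary transcripts (1442 ± 61.1 CPM in the controls, 1393 ± 90.0 CPM in the knockouts), and the helicase genes Ddx5 (1024 ± 31.2 and 1042 ± 68.9 CPM) and Ddx17 (290 ± 1.06 and 290 ± 2.41 CPM). The 16 importins had a median of −0.04, and the most abundant of these, Ipo5, was at 436 ± 36.1 and 425 ± 57.9 CPM. Kpnb1, the partner of importin alpha, was at 386 ± 34.1 and 390 ± 43.9 CPM, and Tnpo1 was at 278 ± 10.9 and 279 ± 10.7 CPM. For these 6 genes the libraries overlapped.

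The 7 genes with values of the RAN cycle, which powers exportin-5, had a median of −0.06. Ranbp2, a protein of the nuclear pore, was at 308 ± 17.3 CPM in the controls and 317 ± 13.3 CPM in the knockouts. Ran itself was at 188 ± 11.5 CPM in the controls and 175 ± 20.8 CPM in the knockouts. Ranbp1, which helps release RAN from export complexes, was at 175 ± 0.79 and 153 ± 1.40 CPM, the lowest log2 difference of that list at −0.19 (−0.39 to 0.004), and did not pass.

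Among 10 genes of dicing and Argonaute loading the median was −0.02. The chaperone gene Hspa8 had the largest difference, −0.37 (−0.89 to 0.16), with 1291 and 810 CPM in the controls and 688 and 914 CPM in the knockouts, so that the controls lay farther apart than the means. The HSP90 genes Hsp90ab1 and Hsp90aa1, whose products open Argonaute for loading, were at 2525 ± 193 and 700 ± 60.1 CPM in the controls and at 2478 ± 226 and 692 ± 127 CPM in the knockouts. The TNRC6 scaffolds, which link Argonaute to deadenylases, were at 152 ± 8.73 and 138 ± 7.51 CPM for Tnrc6a and 133 ± 0.83 and 136 ± 9.41 CPM for Tnrc6c. The 25 genes of deadenylation, decapping and repression had a median of 0.01 and a range from −0.26 for Dcp1b to 0.19 for Cnot8, a deadenylase subunit. Pabpc1, the poly(A)-binding protein gene, was at 2111 ± 153 and 2099 ± 49.8 CPM, the helicase gene Ddx6 at 245 ± 11.9 and 255 ± 13.5 CPM, and Cnot1, the scaffold of the CCR4-NOT deadenylase, at 178 ± 13.2 and 185 ± 12.1 CPM. Among 10 genes of microRNA tailing and turnover the median was 0.03. The most abundant were the nuclease gene Snd1 (264 ± 23.8 and 268 ± 19.3 CPM), the uridylyltransferase gene Tut7 (164 ± 4.06 and 175 ± 10.2 CPM) and the exonuclease gene Xrn2 (117 ± 6.18 and 117 ± 6.56 CPM). Within this list Zc3h12a, which encodes the ribonuclease Regnase-1, was at 7.08 and 6.65 CPM in the controls and 5.02 and 4.78 CPM in the knockouts (log2 difference −0.45, limma adjusted p = 0.985), with groups that did not overlap.

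**Figure D3:**
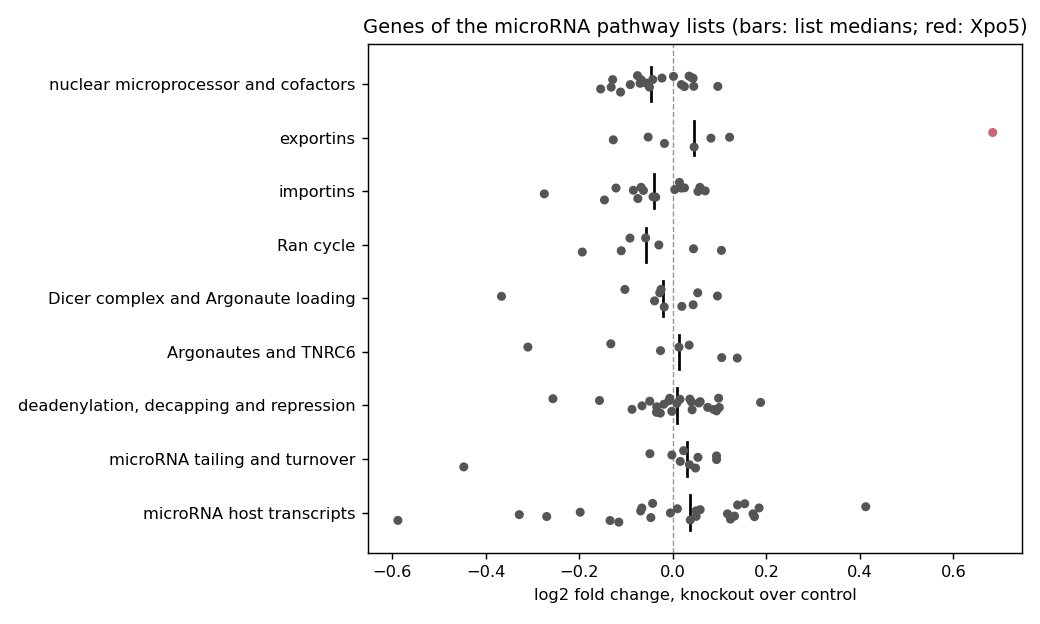
Log2 difference between knockout and control (horizontal axis) for each tested gene of the 9 pathway lists, with a bar at each list's median and Xpo5 in red. The medians lie between −0.06 and 0.05, and Xpo5 at 0.68 stands to the right of the other points, the next being Mir142hg at 0.41.

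Primary transcripts of microRNAs are the source of the cargo of exportin-5, and some can be seen in poly(A) RNA. Mature microRNAs were not measured. Of 30 listed host transcripts 25 had values, with a median log2 difference of 0.04, and the most abundant were coding genes. Huwe1, a ubiquitin ligase gene, was at 448 ± 45.3 CPM in the controls and 434 ± 5.96 CPM in the knockouts, Arrb1 at 164 ± 15.3 and 180 ± 7.94 CPM, and Smc4 at 149 ± 22.6 and 152 ± 4.50 CPM. The noncoding hosts below were singled out after their values were seen. Mir22hg was the highest of these, at 12.9 and 15.5 CPM in the controls and 14.3 and 13.0 CPM in the knockouts. Mir17hg was at 4.68 and 2.94 CPM against 4.09 and 2.72 CPM, and Mir142hg, a host active in blood cells, at 2.01 and 1.05 CPM against 2.51 and 1.79 CPM. For these 3 hosts the groups overlapped. Mir100hg was at 3.31 and 4.27 CPM in the controls and 2.51 and 2.17 CPM in the knockouts, with no overlap (log2 difference −0.59, limma adjusted p = 0.983). Mir99ahg, its paralog with a like set of microRNAs, was at 2.21 and 1.75 CPM against 1.91 and 1.79 CPM. These levels rest on 15 to 240 reads per library.

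Some of the microRNAs these hosts encode are shown to compare their seeds (bases 2 to 8, in capitals), the part that pairs with a target. The sequences are from RefSeq on GRCm38.p6, read 5′ to 3′.
miR-22-3p of Mir22hg: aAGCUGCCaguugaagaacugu
miR-17-5p of Mir17hg: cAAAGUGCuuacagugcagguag
miR-20a-5p of Mir17hg: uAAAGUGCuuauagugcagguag
miR-19a-3p of Mir17hg: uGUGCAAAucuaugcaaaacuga
miR-19b-3p of Mir17hg: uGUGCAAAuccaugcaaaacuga
miR-142a-3p of Mir142hg: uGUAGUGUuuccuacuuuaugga
miR-100-5p of Mir100hg: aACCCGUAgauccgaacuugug
miR-99a-5p of Mir99ahg: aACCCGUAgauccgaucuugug
Mir17hg carries pairs with the same seed, miR-17-5p with miR-20a-5p and miR-19a-3p with miR-19b-3p. The miR-100-5p of Mir100hg and the miR-99a-5p of Mir99ahg also have the same seed. The values of these hosts stood at −0.59 and −0.07 on the log2 scale. A wider count used position: among 1005 RefSeq hairpins there were 472 pairs of a hairpin and a tested gene holding it on the same strand, in 440 genes. Some hairpins, such as Mir22, lay in several genes and count each time. Of these 440 host genes 0 passed with limma or edgeR and 3 with DESeq2, against 0.161%, 0.161% and 0.562% of all genes. An unadjusted p under 0.05 was found for 22 (6 higher, 16 lower), which is 5% of the 440 against 4.9% of all genes, and their median log2 difference was −0.005. Xpo5 is among them, since the hairpin gene Mir693 (chromosome 17, 46231531 to 46231619) lies between its exons on the same strand.

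The nearest tested genes on the side of the Xpo5 start, Polh and Gtpbp2, had lower levels in both knockouts than in both controls. Polh, which encodes the translesion DNA polymerase eta, lies head to head with Xpo5 on the minus strand (chromosome 17, 46171355 to 46202645), with 136 bases between the annotated genes. Polh was at 17.2 and 16.6 CPM in the controls and 12.7 and 11.9 CPM in the knockouts, with both knockouts below both controls (log2 difference −0.44, 95% confidence interval −0.76 to −0.12). It did not pass with limma (adjusted p = 0.769). Gtpbp2, a GTPase of ribosome rescue and the next gene along (46161032 to 46169370, 33.4 kb from Xpo5), was at 67.2 and 70.0 CPM in the controls and 48.4 and 53.1 CPM in the knockouts. Its groups did not overlap either, the log2 difference was −0.43 (−0.67 to −0.20), and it did not pass (adjusted p = 0.35). On the other side Polr1c, a subunit of RNA polymerases I and III that begins 321 bases past Xpo5, was at 7.73 and 10.2 CPM against 9.70 and 7.99 CPM. Yipf3, a Golgi protein gene 4.48 kb away, was at 61.6 and 63.3 CPM against 60.3 and 67.1 CPM, so that both genes overlapped between genotypes.

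Within 1 Mb of Xpo5, 40 other genes had values and 38 were tested. Polh and Gtpbp2 were the 2 with an unadjusted p under 0.05, which is 5.26% of the 38 against 4.9% of all genes. With limma, edgeR or DESeq2 0 passed, against 0.161%, 0.161% and 0.562% of all genes. The groups did not overlap for 14 of the 38, against 31.9% of all genes. Of the 38, 3 were higher and 11 lower in this way in the knockouts, against 16.5% and 15.4% of all genes. Log2 differences were above 0 for 10 and below 0 for 28 of the 38, against 5945 and 5836 of all genes tested. The median log2 difference of the 38 was −0.06. Within 100 kb the remaining genes, Mrps18a, Mad2l1bp, Tjap1 and Abcc10, had log2 differences of 0.01, 0.21, −0.06 and 0.16. The nearest called genes were Clic5 and Rcan2, at log2 differences of 2.07 and 1.60 (adjusted p = 0.00729 and 0.0199 with limma), which lie 1.92 and 2.16 Mb from Xpo5. Between Clic5 and Xpo5 16 genes were tested, and the same 2, Gtpbp2 and Polh, had an unadjusted p under 0.05, against 4.9% of all genes. Chromosome 17 held 3 of the 19 called genes and 589 of the 11781 tested. Within 2.5 Mb 62 genes were tested, Xpo5 among them, and 12.9% had an unadjusted p under 0.05, against 4.9% of all genes. These were 3 with higher levels, Xpo5, Clic5 and Rcan2, and 5 with lower ones. The 5 were Polh, Gtpbp2, AI661453 (−0.91), Ccnd3 (−0.45) and Foxp4 (−0.41), and none of these passed with limma. Groups did not overlap for 6 with higher and 21 with lower levels, against 16.5% and 15.4% of all genes.

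**Figure D4:**
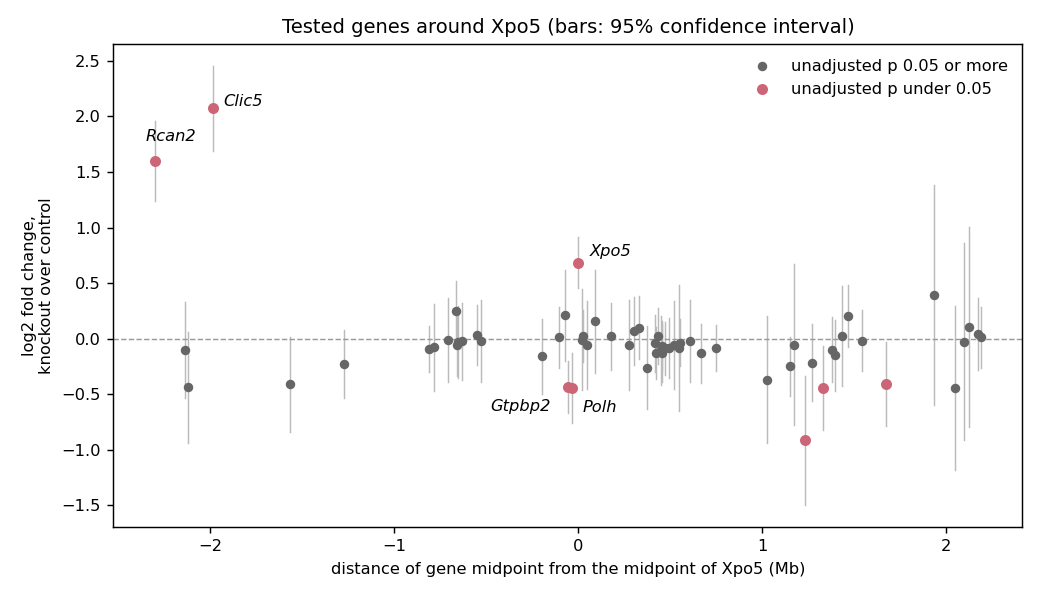
Log2 difference between knockout and control (vertical axis) with its 95% confidence interval for 62 tested genes, by the distance of each gene's midpoint from that of Xpo5 (horizontal axis, Mb), with genes at an unadjusted p under 0.05 in red. Xpo5 at 0.68 stands beside Polh at −0.44 and Gtpbp2 at −0.43, and Clic5 and Rcan2 stand toward the left.

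The levels of Xpo5 and Polh differed in opposite directions, though neither passed with limma (adjusted p = 0.0698 and 0.769). A shared control of the pair was not tested. Because both genes start from 1 short interval, the stretch is shown. It is the RefSeq promoter window of Xpo5 (GRCm38.p6, chr17:46202561-46202860, plus strand), which runs from 250 bases before to 50 bases after the RefSeq start of Xpo5. The 169 bases between the RefSeq starts of Polh and Xpo5 are in capitals.
Xpo5 promoter: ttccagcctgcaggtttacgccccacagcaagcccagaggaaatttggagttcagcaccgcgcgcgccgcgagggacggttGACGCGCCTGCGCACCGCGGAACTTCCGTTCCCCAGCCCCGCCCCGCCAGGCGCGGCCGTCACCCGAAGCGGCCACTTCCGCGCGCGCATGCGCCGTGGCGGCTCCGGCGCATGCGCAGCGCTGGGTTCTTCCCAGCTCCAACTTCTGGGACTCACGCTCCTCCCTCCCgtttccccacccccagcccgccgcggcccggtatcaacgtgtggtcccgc
The window is 71.3% G and C, and 269 of its 300 bases also lie in the corresponding window of Polh. The longest stretch that occurs more than once between the starts is GCGCATGCGC, which reads the same on both strands and is the palindromic core of sites for the activator NRF1. It occurs 2 times, beginning at −85 and −62 from the Xpo5 start, and was singled out from the sequence itself. It is found in 0.977% of 27025 promoters of the same length, 1 per gene symbol, and 0.0259% hold it 2 or more times. The core of ETS factor sites, CGGAAG on either strand, occurs 2 times and is found in 17.2% of promoters. The GC box core GGGCGG on either strand occurs 1 time and is found in 35.9% of promoters. None of these matches overlaps another, and all lie between the starts. Of the 9 genes 8 had a promoter entry, all but Ago2. Of these, 1, Xpo5, held the NRF1 core, 4 (Xpo5, Drosha, Dgcr8 and Ago3) held the ETS core, and 7, all but Drosha, held the GC box core. A match describes these letters and is not evidence of binding.

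Some genes outside the pathway had a pattern over the 4 libraries close to that of Xpo5. Likeness was the distance between the log2(CPM + 0.5) values of the 4 libraries after subtracting the control mean, over 9435 genes with a mean of 5 CPM or more. The nearest 5 were 4833438C02Rik (distance 0.24), Akr1c18 (0.25), Snx29 (0.26), Msln (0.28) and Cd59a (0.30). Akr1c18, an aldo-keto reductase gene, was at 118 and 112 CPM in the controls and 181 and 164 CPM in the knockouts. Cd59a, which encodes an inhibitor of complement, was at 75.3 and 74.6 CPM against 129 and 106 CPM. Msln, the gene of mesothelin, was at 49.3 and 45.0 CPM against 61.8 and 71.6 CPM, and lies 20.4 Mb from Xpo5 on chromosome 17. Snx29, a sorting nexin gene, was at 50.7 and 41.4 CPM against 61.4 and 77.3 CPM. With limma 0 of the 5 passed, and with DESeq2 Akr1c18 and Cd59a did (adjusted p = 0.00246 each). With 4 libraries in 2 groups such a ranking describes these values and carries no test.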

How the data were processed

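Poly(A) RNA of 2 control and 2 knockout libraries was compared. The submitters' processing notes name STAR, featureCounts of Subread, edgeR and mm10 (GRCm38). The authors deposited a normalised signal per gene and library, which is in CPM, with TMM-scaled library totals as the denominator. 100% of its values lay within 0.001 reads of a whole number, and CPM from these reads with TMM scaling matched the deposited signal within 4.91e-11. Of the authors' low-count filter, annotation release and strand setting the sources used here say nothing. Every pair of libraries differed beyond sampling noise (chi-square per degree of freedom 11.2 to 22.5).

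Genes that reached 1 CPM in 2 or more libraries (11781) were tested with limma on log2(CPM + 0.5), letting the prior variance follow the intensity, 2-sided, with genotype as the sole term and Benjamini-Hochberg adjustment over all of them. Fold changes on this scale understate low genes. edgeR's quasi-likelihood test and DESeq2 on the recovered reads, another filter, pseudocount and scaling, and leaving out each library were among the alternatives. Named were the 9 genes and Ago4, members of each list with an unadjusted p under 0.05 or among its 3 highest in CPM, genes within 100 kb of Xpo5 or within 1 Mb with an unadjusted p under 0.05, the 5 genes nearest in pattern, Piezo1 and, of each marker list, the most abundant gene and up to 2 more. Others, such as those at the ends of a list's range, were chosen after their values were seen. Members and lists were chosen with earlier results of these data known. The same replicate number does not mark a shared animal or day in the labels. Positions are from GENCODE M21, in which 12704 of 12799 symbols were found, and sequences from RefSeq on GRCm38.p6. In a test on simulated reads of 11656 genes for this comparison, limma found 52.6% of 57 genes set to change 1.5-fold and 97.2% of 72 set to change 2-fold, and made 6 false calls among the 11456 left unchanged. The simulation gave every gene the same variation between libraries, and genes with few reads were not among those changed. That variation was set and not estimated from these libraries, so the shares found are not the power of this comparison. Tests ran in R 4.3.3 (DESeq2 1.42.0, limma 3.58.1, edgeR 4.0.16), and tables and figures in Python 3.11.15 (matplotlib 3.10.9, pandas 2.3.3, SciPy 1.17.1, NumPy 2.4.6).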

Additional observations from a re-analysis of the deposited data

How the results depend on the processing

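Each result was recomputed under 15 alternatives. Xpo5 had a log2 difference of 0.68 and an adjusted p of 0.0698. It passed with the replicate number as a block (0.68, adjusted p = 0.00762), with DESeq2 on the recovered reads (0.69, adjusted p = 0.000528) and without knockout 1 (0.75), and ranged from 0.62 to 0.75 with 1 library left out. The pathway lists held 0 called genes, and 1, Xpo5, under the block, DESeq2 and without knockout 1 (0 to 1 with 1 library left out). Of the other 8 genes 0 were called under any of the 15. Over all genes the 19 calls became 4 without an intensity trend, 89 with the replicate block, 65 with DESeq2, and 7 to 76 with 1 library left out (7 with control 1 omitted, 8 with control 2, 76 with knockout 1, 61 with knockout 2); the cause was not tested. The replicate numbers are not shown to pair libraries, since the correlation of same-numbered deviations across genes was −0.0016. Of 120 values for the other 8 genes, 7 changed sign. With 1 library left out these were Xpo1 (−0.0061 to 0.17), Dicer1 (−0.017 to 0.10), Tarbp2 (−0.27 to 0.062) and Ago2 (−0.063 to 0.089), and with plain library totals Ago2 was at −0.011. Polh ranged from −0.49 to −0.39 and Gtpbp2 from −0.50 to −0.37 with 1 library left out, alternatives that were added after their values were seen. With 2 libraries per genotype and a set variation, limma found 52.6% of simulated 1.5-fold changes and 97.2% of 2-fold ones. Smaller changes can thus be missed at this depth and number, and how often in the data themselves was not tested.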
